A study of Mus musculus with 6 samples.

Results

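Single-cell RNA profiles of 50 cells were compared within 1 library of mouse haematopoietic stem and progenitor cells: the 25 cells with the highest deposited Cd48 score against the 25 with the lowest, out of the 80 cells of the MPP2 library and 497 cells in the 6 libraries of the series. The library held bone marrow cells of C57BL/6 mice aged 8 to 10 weeks, sorted as 4 populations and sequenced together: MPP2 cells, CD48+ HSC1 cells, CD48+ HPC1 cells, and HPC1 cells negative for both CD201 and CD48. No column of the table traces a cell to its gate, so the ranking by Cd48 transcript stands in for the CD48+ and CD48- gates and is not the sort itself. Both groups came from the same library, strain and tissue, with no treatment named, and the labels do not say how many mice were pooled. Throughout, "Cd48-high" and "Cd48-low" name the 2 sets of 25 cells, and the remaining 30 cells of the library are called the cells ranked between.

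CD48 is a surface glycoprotein of the SLAM family that binds CD244 on other blood cells. In mouse bone marrow it is carried by most committed progenitors and mature leukocytes and is absent or low on long-term repopulating stem cells, which is why sorts of stem cells leave CD48+ cells out. MPP2 is the name for CD48+ multipotent progenitors that still carry CD150 (Slamf1) and are known for output to megakaryocytes and red cells, while CD201 (Procr) marks a stem cell-rich fraction.

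The cells were chosen by their Cd48 score alone, which is given only as a description. It ran between 1.05 and 2.84 in Cd48-high cells and between -0.893 and -0.474 in Cd48-low cells. The first cell outside the Cd48-high set had 1.02, against 1.05 for the last one inside, and the first cell outside the Cd48-low set had -0.470, against -0.474 for the last one inside. Counts of Cd48 solved back out of the scores had a median of 31 in Cd48-high cells (lowest 1, highest 212) and of 0 in Cd48-low cells (highest 7), and 14 Cd48-low cells had none. Cd48 is left out of everything that follows.

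Of the 24 genes named by size of difference, 3 also belonged to a gene list and had a promoter entry in RefSeq (GRCm38.p6), and these are printed to show the start-site sequence of a granule enzyme gene, an effector gene and a gene of the stem cell list. Mpo encodes myeloperoxidase and lies at chr11:87793534-87793833 on the plus strand, Cst7 encodes cystatin F and lies at chr2:150570165-150570464 on the plus strand, and Sult1a1 encodes a sulfotransferase and lies at chr7:126676369-126676668 on the minus strand. Each window runs 250 bases before to 50 after the start, 5′ to 3′ on the gene's strand, and capitals mark matches on either strand to a motif. The motifs were GAGGAA for PU.1, then TTGCNNAA for C/EBP proteins, then AGATAA for erythroid GATA proteins, and TGTGGT for RUNX proteins.
Mpo: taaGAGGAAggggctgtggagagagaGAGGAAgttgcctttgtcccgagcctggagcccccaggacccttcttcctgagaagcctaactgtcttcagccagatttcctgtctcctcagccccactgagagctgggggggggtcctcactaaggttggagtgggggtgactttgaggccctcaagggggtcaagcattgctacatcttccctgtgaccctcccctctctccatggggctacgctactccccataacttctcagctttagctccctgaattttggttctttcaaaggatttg
Cst7: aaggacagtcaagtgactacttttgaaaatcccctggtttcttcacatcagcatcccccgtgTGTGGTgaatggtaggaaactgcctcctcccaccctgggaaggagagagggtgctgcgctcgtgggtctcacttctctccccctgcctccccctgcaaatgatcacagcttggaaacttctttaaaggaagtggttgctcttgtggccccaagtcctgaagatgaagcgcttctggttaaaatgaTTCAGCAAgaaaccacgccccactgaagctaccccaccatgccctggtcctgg
Sult1a1: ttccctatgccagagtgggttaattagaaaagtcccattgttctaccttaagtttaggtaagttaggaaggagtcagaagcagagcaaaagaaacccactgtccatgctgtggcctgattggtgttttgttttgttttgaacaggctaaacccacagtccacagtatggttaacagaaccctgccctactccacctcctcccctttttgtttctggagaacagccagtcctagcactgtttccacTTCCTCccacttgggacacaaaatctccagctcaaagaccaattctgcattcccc
Mpo held 2 GAGGAA matches, Cst7 held 1 TTGCNNAA and 1 TGTGGT match, and Sult1a1 held 1 GAGGAA match on the opposite strand. Of 32851 RefSeq promoter windows, 28.3% held GAGGAA, 10.8% TTGCNNAA, 11.2% AGATAA and 16.8% TGTGGT. Among 22 windows of 18 granulocyte-monocyte list genes, 59.1% held GAGGAA and 36.4% TGTGGT, and among 24 windows of 21 stem cell list genes, 33.3% held GAGGAA and 4.17% TGTGGT. Among 12 windows of 9 named higher genes, 25% held GAGGAA and 8.33% TGTGGT, both below the shares of all windows. Among 9 windows of 9 named lower genes, 33.3% held GAGGAA and 0% TGTGGT. These are matches of letters in a window, not binding sites.

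Levels are given as CPM: the counts of a gene summed over the cells of a set, scaled to a total of 1e6 counts in those cells. Total counts per cell had a median of 151097 in Cd48-high cells (lowest 10709, highest 665551) and of 122832 in Cd48-low cells (lowest 24892, highest 496094), with a median of 5866 and 5101 recovered genes detected. A count of 0 over a set allows up to 3 counts, which is 0.623 CPM in Cd48-high and 0.747 CPM in Cd48-low cells. Sums weigh deep cells most, and the deepest 3 cells held 30.3% of all counts in Cd48-high and 31.7% in Cd48-low cells. Intervals in brackets are exact 95% Poisson intervals, which cover counting error only. With 1 library and cells as the only units there is no replicate and no test, and every difference below describes these 50 cells.

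Of 8335 recovered genes counted in at least 25% of the cells of either set, 342 (4.1%) were at least 2-fold higher in Cd48-high cells and 489 (5.87%) at least 2-fold lower, on a log2 scale with 10 CPM added to both sides. The median log2 ratio of these genes was -0.02. Each gene was also compared without the highest cell of each set. Here and below, the highest cell left out is the one with the most counts of the gene, which need not have the highest CPM. Without these cells, 221 of the 342 and 256 of the 489 were still past 2-fold. The single Cd48-high cell with 665551 counts was the highest of its set, in counts, for 97 of the 342 genes. Among Cd48-low cells, 1 cell with 362964 counts was the highest, in counts, for 175 of the 489. Leaving out both cells gave 435 genes higher and 421 lower, of which 265 and 303 were among those just counted.

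The 12 named genes with the largest ratios were Mpo, Cst7, Atp8b4, Bms1, Bcl7a, Mthfd2, Acbd5, Ccrl2, Tespa1, Fgl2, Car1 and Ercc4. Bcl7a, a subunit of SWI/SNF chromatin remodelling complexes, had 90.5 CPM (82.2 to 99.4) in Cd48-high cells and 11.2 CPM in Cd48-low cells. It was counted in 16 of 25 Cd48-high and 7 of 25 Cd48-low cells, and its log2 ratio of 2.25 was 2.79 without the highest cells, since 86.7% of the Cd48-low counts came from 1 cell. Mthfd2, a mitochondrial enzyme of folate metabolism, had 53.4 CPM in Cd48-high cells, where 15 cells held a count, and 3.73 CPM in Cd48-low cells, where 9 did (log2 ratio 2.21). Bms1, a ribosome assembly factor, had 93.4 CPM and 11.2 CPM in Cd48-high and Cd48-low cells (log2 ratio 2.29, and 1.67 without the highest cells). Per-cell levels of all 3 overlapped between the sets, because each was at 0 in some Cd48-high cells. Atp8b4, a lipid flippase, was uneven: 67.3% of its Cd48-high counts lay in 1 cell, and it was counted in 8 Cd48-high and 6 Cd48-low cells.

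The 12 named genes with the smallest ratios were Ptbp2, Ubr3, Sult1a1, Parp10, Rab24, Med12l, Pxmp4, Rhot2, Sgce, Zfp760, Adgre5 and Pikfyve. Ptbp2, an RNA-binding regulator of splicing, had 3.74 CPM (2.22 to 5.91) in Cd48-high cells and 72.9 CPM (64.8 to 81.8) in Cd48-low cells, with a count in 8 and 17 cells (log2 ratio -2.59). Adgre5, the adhesion receptor CD97, had 6.02 CPM in Cd48-high and 60.7 CPM in Cd48-low cells, and its log2 ratio of -2.14 was -2.11 without the highest cells. Rab24, a small GTPase, had 8.72 CPM in Cd48-high and 79.4 CPM in Cd48-low cells although it was counted in more Cd48-high cells (20 against 17). After each cell was thinned to 10000 counts, Rab24 was seen in 4 Cd48-high and 8 Cd48-low cells. The highest cell held 71.0% of the Cd48-low counts of Zfp760 and 67.4% of those of Sgce, and without both deep cells named above their log2 ratios were -0.95 and -0.91.

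**Figure D1:**
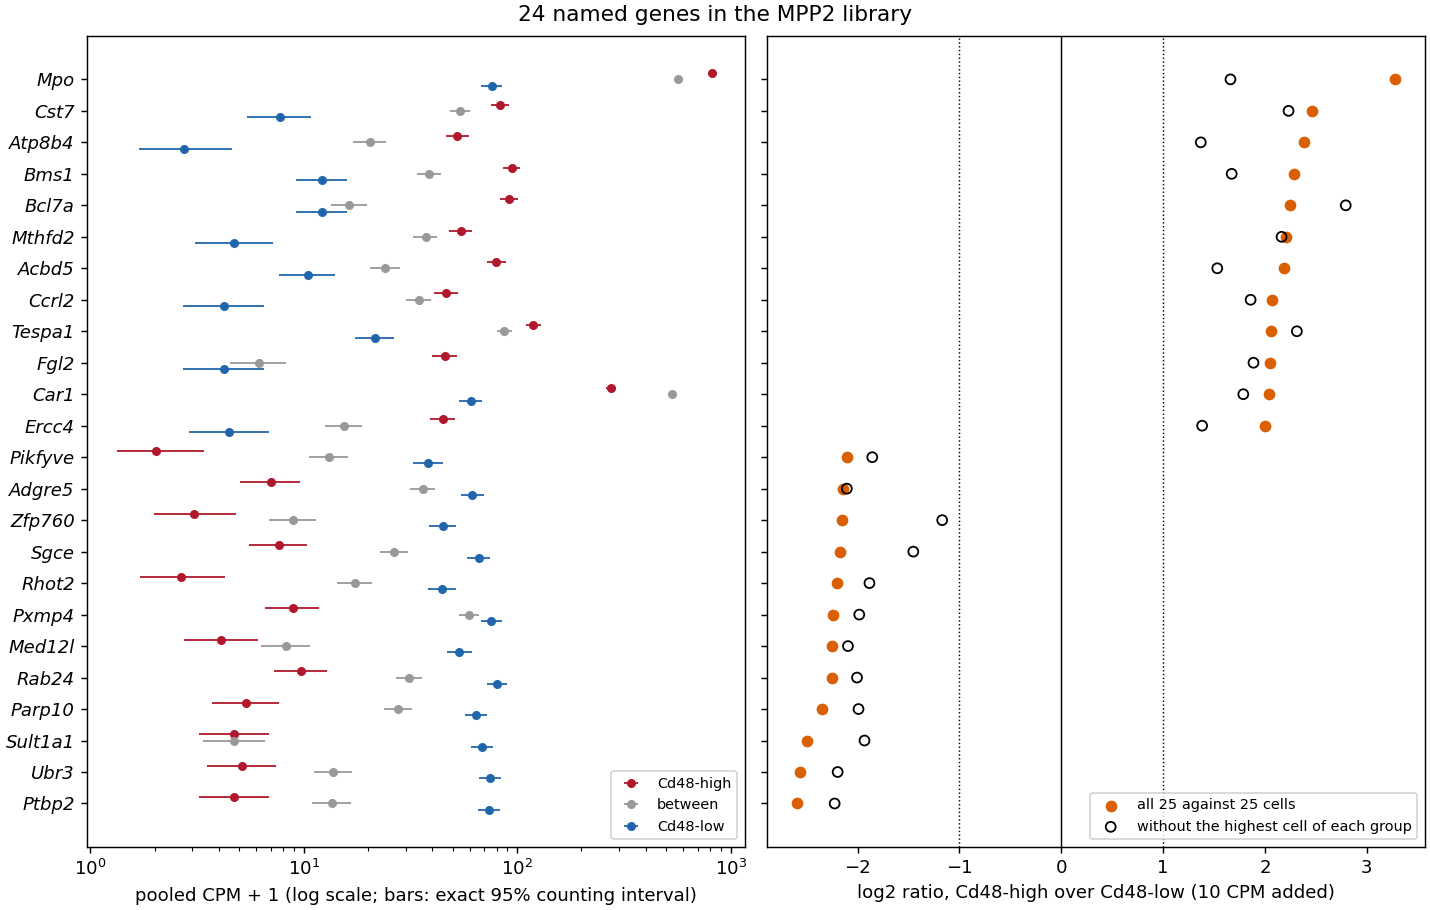
The 24 named genes, with pooled CPM plus 1 on a log axis in the left panel (points for Cd48-high, between and Cd48-low cells, bars for exact 95% counting intervals) and the log2 ratio of Cd48-high over Cd48-low cells in the right panel, with all cells (filled) and without the highest cell of each set (open). All 24 open points stay past 2-fold because the naming rule required it, and Mpo moves most, with 3.27 for all cells and 1.66 without the highest ones.

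Of the 22 gene lists, the effector and adhesion list had the highest median ratio. It holds 20 genes of lymphocyte effector function and adhesion that had been reported with CD48 gates in these same libraries, so its direction here is not independent evidence. Counts were recovered for 17 members: 9 were at least 2-fold higher in Cd48-high cells and none at least 2-fold lower, where 3.48% and 5.4% of all 11831 recovered genes were. The median log2 ratio was 1.09, against -0.01 over all recovered genes, and 0.88 when each gene lost its highest cells. Summed over the 17 members, the level of a cell had a median of 2272 CPM in Cd48-high cells (1429 to 10762) and of 1535 CPM in Cd48-low cells (384 to 5250). The sets overlapped, with 19 of 25 Cd48-high and 7 of 25 Cd48-low cells above the library median.

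Nkg7, a granule membrane protein of killer cells and early granulocytes, was counted in 25 Cd48-high and 24 Cd48-low cells. Its level per cell had a median of 390 CPM in Cd48-high cells (6.91 to 1344) and of 95.7 CPM in Cd48-low cells (0 to 786). Pooled, that was 589 CPM (568 to 611) and 261 CPM (246 to 278), a log2 ratio of 1.14 that was 1.34 without the highest cells. After thinning, 24 of 25 Cd48-high cells (96.0%, exact interval 79.6 to 99.9) and 14 of 25 Cd48-low cells (56.0%, 34.9 to 75.6) held a count. Without thinning, 79 of the library's 80 cells held one, so these shares describe a level and are not read as cells that express the gene. The 30 cells ranked between had a median of 219 CPM, which lies between those of the 2 sets.

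Cst7, the protease inhibitor cystatin F found in the granules of killer and myeloid cells, had 82.0 CPM in Cd48-high and 6.72 CPM in Cd48-low cells. The median cell was at 0 in both sets: 12 Cd48-high cells reached up to 305 CPM and 9 Cd48-low cells up to 38.8 CPM. Tespa1, a component of T cell receptor signalling, had 118 CPM in Cd48-high and 20.7 CPM in Cd48-low cells, with a count in 14 and 11 cells. Cd52, a small glycoprotein of lymphocytes, had a median of 51.5 CPM per cell in Cd48-high cells (0 to 449) and of 5.96 CPM in Cd48-low cells (0 to 193). It was counted in 22 of 25 Cd48-high and 14 of 25 Cd48-low cells, and its pooled log2 ratio was 1.80.

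Plac8, a small cysteine-rich protein of myeloid and lymphoid progenitors, was the most abundant member, with 1087 CPM in Cd48-high and 501 CPM in Cd48-low cells (log2 ratio 1.10), and was counted in all 50 cells. Cd53, a tetraspanin of leukocytes, had 75.6 CPM in Cd48-high and 30.1 CPM in Cd48-low cells, with a count in 15 and 7 cells. For the chemokine genes the difference lay in few cells. Ccl9 had 83.7 CPM in Cd48-high cells, 54.3% of it in 1 cell, and a log2 ratio of 2.20. Ccl3 had 66.4 CPM in Cd48-high and 10.2 CPM in Cd48-low cells, and its log2 ratio of 1.92 was 0.99 without the highest cells. Emb, an immunoglobulin-like adhesion protein, had a log2 ratio of 1.85 with all cells and 0.80 without the highest ones. Cd37, another tetraspanin, had 101 CPM in Cd48-high and 115 CPM in Cd48-low cells (log2 ratio -0.18), the one recovered member below 0. Of the 3 members with a score only, Gzmb was 0.43 higher in mean score in Cd48-high cells, Laptm5 0.56 lower and Coro1a 0.10 lower.

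**Figure D2:**
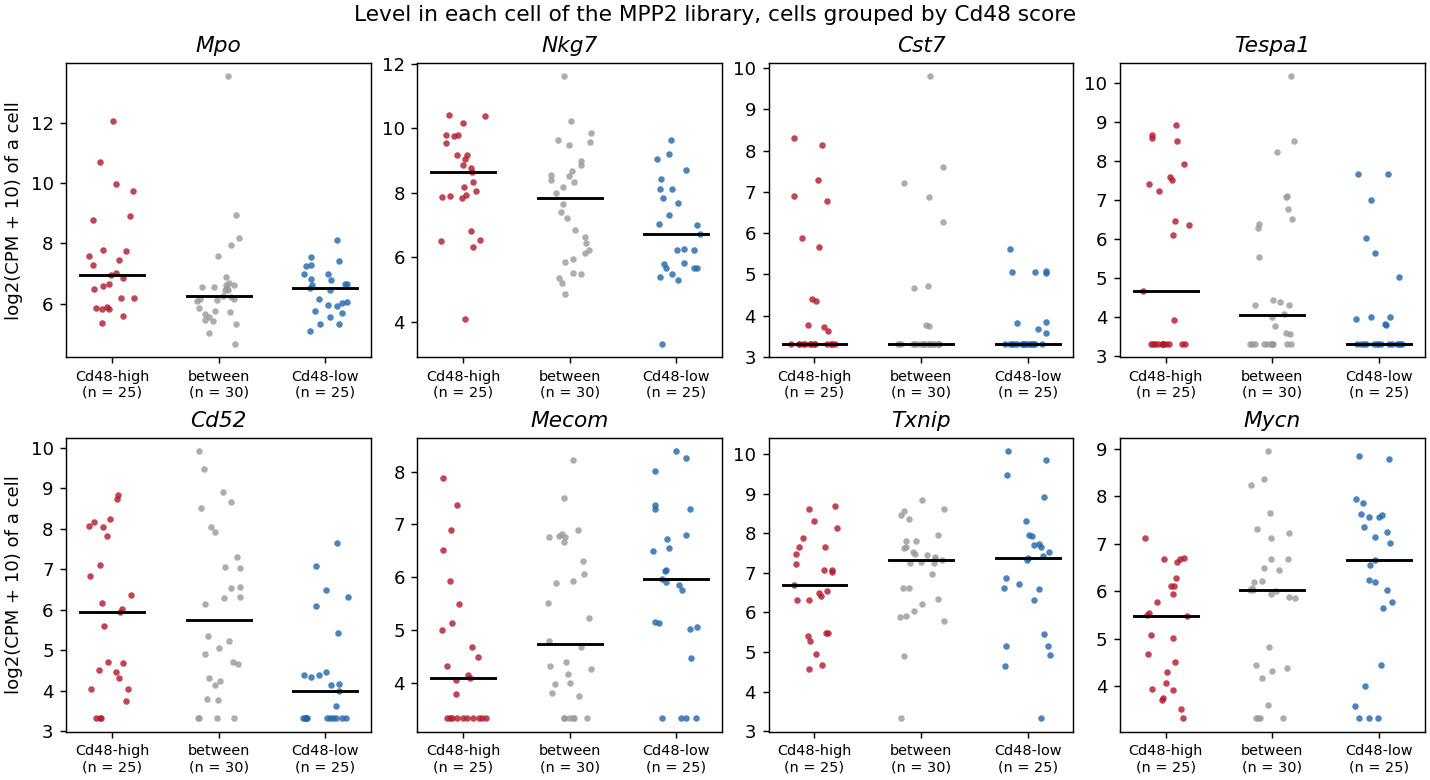
Level of 8 genes in each of the 80 cells as log2(CPM + 10), with 1 point per cell and a bar at the median, for the 25 Cd48-high, 30 between and 25 Cd48-low cells. Nkg7 and Cd52 medians are higher in Cd48-high cells and Mecom and Mycn medians lower, while single cells overlap in every panel.

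The stem cell list pointed the other way. It holds 30 genes that mark haematopoietic stem cells or act in them, and counts were recovered for all 30. In Cd48-high cells 7 were at least 2-fold lower and none at least 2-fold higher, 26 had a log2 ratio below 0, and the median was -0.58 (-0.52 without the highest cells). Of all recovered genes 5.4% were at least 2-fold lower and 3.48% at least 2-fold higher. The 7 were Mecom, Sult1a1, Tie1, Mycn, Rbpms, Txnip and Ctnnal1. Summed over the list, the level of a cell had a median of 2055 CPM in Cd48-high cells (651 to 3569) and of 2772 CPM in Cd48-low cells (1484 to 4530), and 9 Cd48-high against 18 Cd48-low cells were above the library median. The cells ranked between had a median of 2275 CPM. The summed level also moved with depth, with a median of 2045 CPM in the deeper 40 and of 2707 CPM in the shallower 40 cells of the library. The part of depth was not tested. The list's median log2 ratio was -0.53 with all cells thinned to 10000 counts and -0.72 without the deepest 10% of cells.

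Mecom, a zinc-finger transcription factor needed to maintain stem cells, had a median of 6.91 CPM per cell in Cd48-high cells (0 to 227) and of 52.4 CPM in Cd48-low cells (0 to 325). Pooled levels were 19.9 CPM (16.1 to 24.3) and 92.6 CPM (83.4 to 102), a log2 ratio of -1.78 that was -1.85 without the highest cells. Between the 2 sets stood 36.4 CPM in the cells ranked between. Mycn, a MYC family factor, had 38.8 CPM in Cd48-high and 110 CPM in Cd48-low cells (log2 ratio -1.29) and was counted in 24 and 22 cells. Txnip, a thioredoxin-binding protein that restrains glucose uptake, had 104 CPM in Cd48-high and 243 CPM in Cd48-low cells (log2 ratio -1.15).

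Sult1a1 had the smallest ratio of the list. Its pooled level was 3.74 CPM in Cd48-high and 67.7 CPM in Cd48-low cells, yet it was counted in 10 Cd48-high and 7 Cd48-low cells, with 43.0% of the Cd48-low counts in 1 cell. Tie1, an endothelial and stem cell receptor kinase, had 2.49 CPM in Cd48-high and 27.9 CPM in Cd48-low cells, with a count in 10 cells of either set. Rbpms, an RNA-binding protein, had 39.9 CPM in Cd48-high and 94.6 CPM in Cd48-low cells, and Ctnnal1, a catenin-like protein, 6.64 and 25.1 CPM. Without the highest cells the log2 ratios of Txnip, Rbpms and Ctnnal1 were -0.94, -0.97 and -0.78, short of 2-fold.

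Several stem cell genes in common use differed less. Hlf, a transcription factor of stem cells, had 70.6 CPM in Cd48-high and 83.9 CPM in Cd48-low cells. Mllt3, a stem cell maintenance factor, had 35.3 CPM in Cd48-high and 71.4 CPM in Cd48-low cells (log2 ratio -0.85). Meis1 and Hoxa9, homeobox partners, had log2 ratios of -0.20 and -0.19, and Gata2 had -0.40. Gfi1b, Ltb, Cd81 and Tcf15 were the 4 members above 0, and 97.6% of the Cd48-high counts of Tcf15 lay in 1 cell.

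The surface proteins of the sort were read separately, since their transcripts are what the gates see as protein. Among 7, none differed 2-fold. Slamf1, which encodes CD150, had 20.1 CPM (16.3 to 24.6) in Cd48-high and 49.0 CPM (42.4 to 56.4) in Cd48-low cells (log2 ratio -0.97), with a count in 12 and 14 cells. Procr, which encodes CD201, had 14.1 CPM in Cd48-high and 31.1 CPM in Cd48-low cells, where 58.4% of the counts came from 1 cell (log2 ratio -0.77, and -0.33 without the highest cells). Ly6a, which encodes Sca-1, had 41.3 and 83.6 CPM in Cd48-high and Cd48-low cells. Kit, Itga2b, Cd34 and Flt3 had log2 ratios between -0.17 and 0.29. Of the SLAM family and its partners, 5 of 11 genes were in the table: Cd84 had a log2 ratio of 0.58, Fyn one of -0.79, Slamf8 had no count in either set, and Ly9 had 1.87 and 1.74 CPM in Cd48-high and Cd48-low cells. The list's median was 0.00.

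Granulocyte-monocyte genes had a median log2 ratio of 0.90 over 22 recovered members, with 9 at least 2-fold higher in Cd48-high cells and none at least 2-fold lower, where 3.48% and 5.4% of all recovered genes were. Much of it lay in 1 cell. Mpo had 814 CPM in Cd48-high and 75.1 CPM in Cd48-low cells, with 73.1% of the Cd48-high counts in the cell with 665551 counts. That cell spent 1.12% of its counts on Mpo, Elane and Ctsg. Ctsg, the granule protease cathepsin G, had 82.1% of its Cd48-high counts in 1 cell, and Elane, neutrophil elastase, 93.8%. Without the highest cells the log2 ratio was 1.66 for Mpo, 1.82 for Ctsg and -0.03 for Elane, and the list's median was 0.05. The typical cell differed less in Mpo, with a median of 115 CPM in Cd48-high and 81.5 CPM in Cd48-low cells. From the mean of per-cell log2 levels the Mpo log2 ratio was 0.97. The next highest Cd48-high cell, with 318494 counts, had 1658 CPM of Mpo and stayed in the 1.66. Ms4a3, a cell cycle-linked membrane protein of granulocyte-monocyte progenitors, did not rest on the cell with 665551 counts. Its median was 43.7 CPM per cell in Cd48-high cells (0 to 275), and its highest Cd48-low cell had 112 CPM. The log2 ratio of Ms4a3 was 1.73 with all cells and 1.72 without the highest ones. Spi1, which encodes PU.1, had 133 CPM in Cd48-high and 210 CPM in Cd48-low cells (log2 ratio -0.62), and Lyz2, lysozyme, 456 and 835 CPM.

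A low level of granulocyte RNA was seen in nearly every cell, whichever set it was in. Mpo was counted in all 80 cells of the library, with at least 24.4 CPM in every Cd48-low cell, and S100a8, a neutrophil gene, held at least 9 counts in each. The share of cells with a count of these genes is therefore not read as expression. The mature neutrophil list had a median log2 ratio of -2.40, with 9 of 14 genes at least 2-fold lower in Cd48-high cells, as were 5.4% of all recovered genes. One Cd48-low cell spent 9.52% of its counts on that list and held 92.1% of the set's counts of it. Summed levels ran between 167 and 3722 CPM in Cd48-high and between 177 and 95250 CPM in Cd48-low cells, with medians of 365 and 420 CPM, and without the highest cells the list's median was 0.11. No doublets were called, and whether that cell was a pair was not tested.

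Cell-cycle genes gave a different answer for the typical cell and for the sum. The summed level of 24 G2/M genes had a median of 3830 CPM in Cd48-high cells (316 to 13430) and of 1034 CPM in Cd48-low cells (298 to 14953). Pooled over cells it was 4373 CPM in Cd48-high and 5541 CPM in Cd48-low cells, where the deepest 3 cells held 39.4% of the list's counts. The list's median log2 ratio was -0.31 from pooled counts, 0.29 from the mean of per-cell CPM and 0.14 with all cells thinned alike. From pooled counts it was -0.24 without each gene's highest cells and -0.11 without the deepest 10% of cells. What sets the sign was not tested, and no direction is given for the list. Depth moved with it, at a median of 3877 CPM in the deeper 40 and 837 CPM in the shallower 40 cells of the library. Above the library median stood 14 of 25 Cd48-high and 10 of 25 Cd48-low cells. Top2a, the topoisomerase of dividing cells, shows the split: its median per cell was 472 CPM in Cd48-high and 62.7 CPM in Cd48-low cells, while its pooled level was 570 and 680 CPM. Ccnb2, cyclin B2, had medians of 105 and 106 CPM in Cd48-high and Cd48-low cells and a pooled log2 ratio of -1.20.

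S phase genes had a small shift in one direction. Of 25, 21 had a log2 ratio above 0 in Cd48-high cells, and the median was 0.28 (0.41 without the highest cells). None was 2-fold higher and 1 (Ccne2) was 2-fold lower, where 3.48% and 5.4% of all recovered genes were. Summed, the median cell had 3971 CPM in the Cd48-high and 2970 CPM in the Cd48-low set, and 16 against 12 cells were above the library median. The deeper 40 cells had a median of 4547 CPM and the shallower 40 one of 2191 CPM, and the part of depth in either cell-cycle list was not tested. Mcm6, a subunit of the replicative helicase, had a median of 408 CPM per cell in Cd48-high and 161 CPM in Cd48-low cells, and pooled levels of 395 and 285 CPM. Of 16 recovered inhibitor and G1 genes (median log2 ratio 0.17), Cdkn1a was the one at least 2-fold higher and Rb1 the one at least 2-fold lower in Cd48-high cells. These single genes stand beside the same 3.48% and 5.4% of all recovered genes. Cdkn1a encodes the p53 target p21, and it had 122 CPM (112 to 132) in Cd48-high and 30.6 CPM (25.4 to 36.5) in Cd48-low cells, with a count in 16 and 12 cells and log2 ratios of 1.70 and, without the highest cells, 1.75. The cells ranked between had 26.2 CPM, below both sets. Cdkn1c, a quiescence-linked inhibitor, was counted in 2 Cd48-high and 6 Cd48-low cells, at 2.08 and 10.7 CPM.

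**Figure D3:**
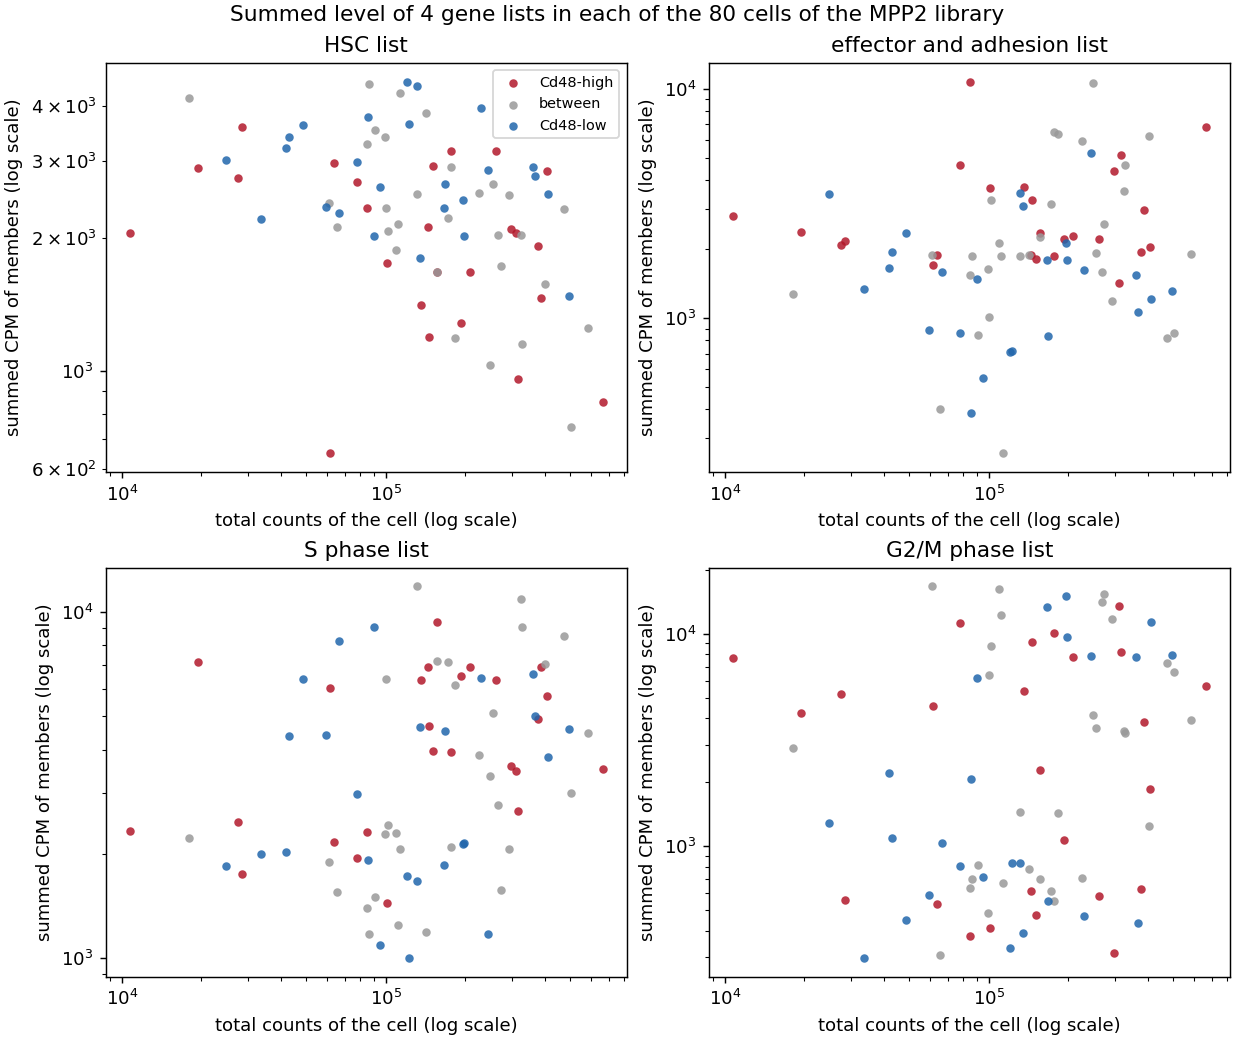
Summed CPM of 4 gene lists in each of the 80 cells against the total counts of the cell, both on log axes, with Cd48-high, between and Cd48-low cells in different colours. Stem cell list levels are lower in deeper cells, the lowest effector and adhesion level of a Cd48-high cell is 1429 CPM, and G2/M levels run between 316 and 13430 CPM in Cd48-high and between 298 and 14953 CPM in Cd48-low cells.

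Of 18 recovered interferon response genes, 3 were at least 2-fold lower in Cd48-high cells and none at least 2-fold higher, where 5.4% and 3.48% of all recovered genes were. In all 16 had a log2 ratio below 0, and the median log2 ratio was -0.66 (-0.40 without the highest cells). The 3 were Irf7, Rtp4 and Xaf1. Irf7, the transcription factor that amplifies interferon production, had 9.97 CPM in Cd48-high and 45.5 CPM in Cd48-low cells (log2 ratio -1.48), but was counted in 14 and 13 cells. Rtp4, an interferon-induced chaperone, had 46.7 CPM in Cd48-high and 133 CPM in Cd48-low cells. The order of the 3 sets did not follow the Cd48 rank. The summed list had a median of 1229 CPM in Cd48-high cells (309 to 3489), 2291 CPM in the cells ranked between and 1640 CPM in Cd48-low cells (570 to 5884). Above the library median stood 8 of 25 Cd48-high cells, 20 of 30 between and 12 of 25 Cd48-low cells, and Irf7 and Rtp4 were highest between, at 53.2 and 148 CPM. In the deeper 40 cells the summed list had a median of 1435 CPM, and in the shallower 40 one of 1925 CPM, and the part of depth was not tested.

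Erythroid genes had a median log2 ratio of 0.03 over 21 recovered, with 2 at least 2-fold higher in Cd48-high cells and 1 at least 2-fold lower. Of all recovered genes, 3.48% were at least 2-fold higher and 5.4% at least 2-fold lower. Blvrb, biliverdin reductase B, had a median of 132 CPM per cell in Cd48-high (0 to 464) and of 40.2 CPM in Cd48-low cells (0 to 206), with a pooled log2 ratio of 1.56 and 1.68 without the highest cells. Car1, carbonic anhydrase 1, had 275 CPM in Cd48-high and 59.5 CPM in Cd48-low cells. Its cells ranked between had 532 CPM, 81.9% of it in 1 cell. Gata1 and Klf1, the erythroid transcription factors, had log2 ratios of 0.91 and 0.84. Haemoglobin transcripts did not share the direction: Hba-a2 had 19.5 CPM in Cd48-high and 63.7 CPM in Cd48-low cells, and Hbb-bs 50.7 and 55.7 CPM. Nor did Rhag and Epor, with log2 ratios of -0.84 and -0.50. Car2, with a score only, had a mean score difference of -0.52 (Cd48-high minus Cd48-low). Of the 21 recovered members, 11 had a log2 ratio above 0 and 8 below 0.

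None of 26 megakaryocyte-platelet genes differed 2-fold, and their median log2 ratio was -0.10. Pf4, platelet factor 4, had 997 CPM in Cd48-high and 1069 CPM in Cd48-low cells, and since 82.8% of the Cd48-high counts came from 1 cell, its log2 ratio was -1.88 without the highest cells. Per cell its median was 172 CPM in Cd48-high and 300 CPM in Cd48-low cells. Of 18 lymphoid progenitor genes, 2 were at least 2-fold higher in Cd48-high cells, Cd52 and Ighm, as were 3.48% of all recovered genes. The list's median log2 ratio was -0.02. Mcpt8, a basophil protease, was counted in 5 Cd48-high cells at 24.7 CPM, 85.7% of it in 1 cell, and in no Cd48-low cell, where 0.747 CPM is the most a count of 0 allows. All 6 recovered mast cell-basophil genes were above 0, with a median of 0.67, at a summed 96.4 CPM in Cd48-high and 24.9 CPM in Cd48-low cells. MHC class II genes had 4 of 10 members at least 2-fold higher in Cd48-high cells, as were 3.48% of all recovered genes, and a median log2 ratio of 0.43 that was 0.0091 without the highest cells. Of the Cd48-high counts of Cd74, 94.4% lay in 1 cell. The typical cell did not share the direction: the summed list had a median of 429 CPM in Cd48-high and 498 CPM in Cd48-low cells, with 13 and 14 cells above the library median.

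Markers of cells outside the sort were low in the typical cell. Summed macrophage-monocyte levels had medians of 35.0 CPM in Cd48-high and 29.8 CPM in Cd48-low cells, and endothelial and stromal genes 61.0 and 64.0 CPM, with list medians of 0.09 and -0.02 and no gene past 2-fold. The highest cells reached 1307 CPM of macrophage-monocyte genes in the Cd48-high and 1191 CPM in the Cd48-low set. Of the mature B, T and NK cell list only 4 of 14 genes could be recovered (median 0.07). Klrb1c had no count in either set, Cd3d was counted in 1 Cd48-low cell, and Cd79b had 87.0 CPM in Cd48-high and 25.6 CPM in Cd48-low cells. Ribosome biogenesis, glycolysis, respiratory chain and immediate early genes had median log2 ratios of 0.20, 0.13, -0.00 and 0.14. Among them, Rrs1, a ribosome assembly factor, was the one gene at least 2-fold higher in Cd48-high cells (83.5 against 34.6 CPM), and Polr1a, the largest subunit of RNA polymerase I, the one at least 2-fold lower (21.0 against 60.2 CPM). Of all recovered genes, 3.48% were at least 2-fold higher and 5.4% at least 2-fold lower.

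**Figure D4:**
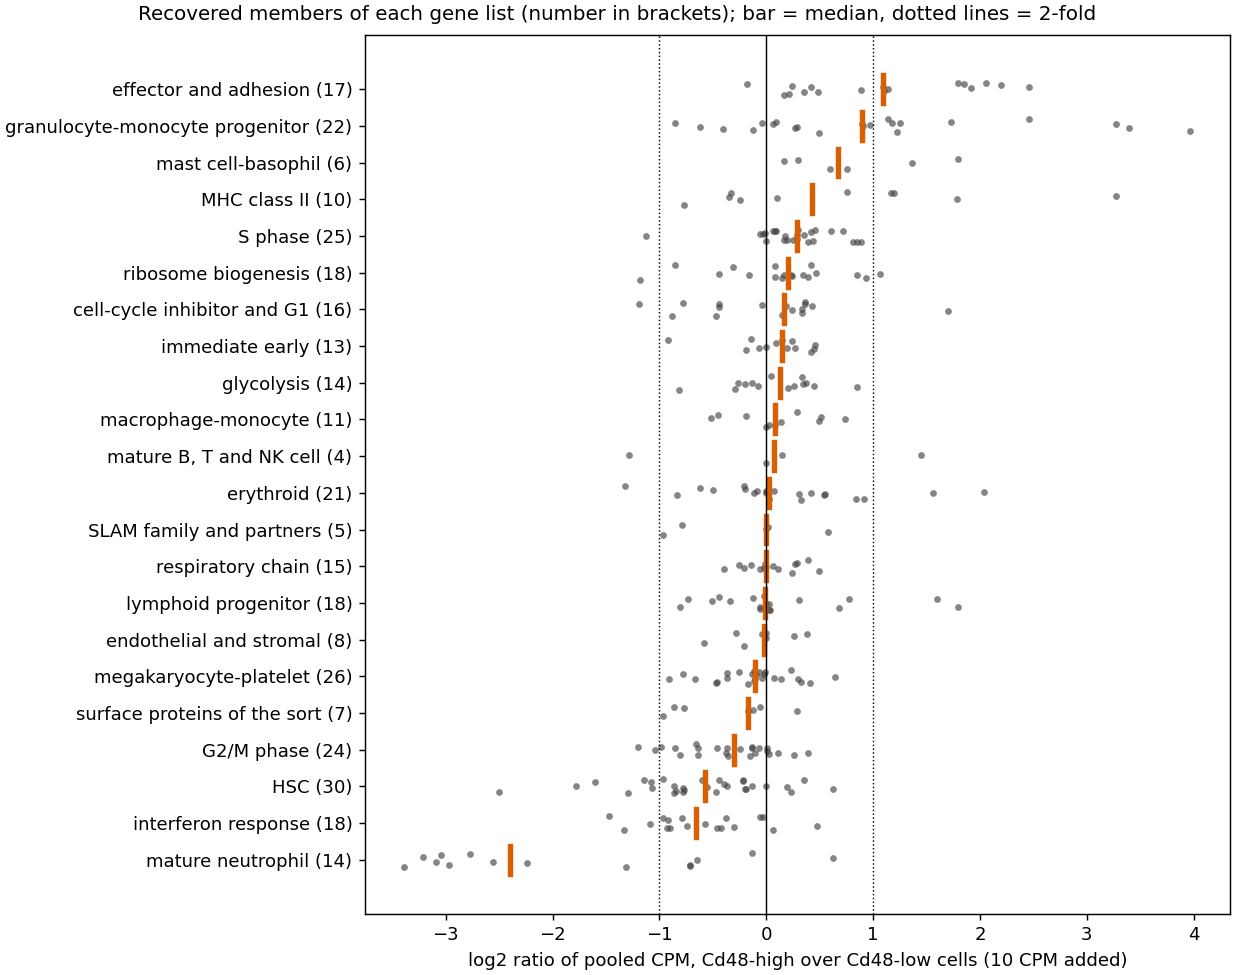
Log2 ratio of pooled CPM, Cd48-high over Cd48-low cells, for each recovered member of the 22 gene lists (points) with the list's median (bar) and 2-fold limits (dotted). The effector and adhesion list has the highest median at 1.09 and the stem cell and interferon lists lie at -0.58 and -0.66, while the mature neutrophil list at -2.40 rests on 1 cell.

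The same ranking was applied in 3 other libraries of the table, with values side by side and no test. The HSC1 library (CD48+ and CD201+CD48- HSC1) and the HPC1 library (CD48+ and CD201+CD48- HPC1), both labelled spleen although the series title names bone marrow, mixed CD48+ and CD48- gates. The double-negative library (CD201-CD48- HSC1 and HPC1) had no CD48+ gate, and only 8 of its 25 Cd48-high cells held a Cd48 count, against 25 in HSC1 and 24 in HPC1. Median counts per cell of Cd48-high and Cd48-low cells were 64066 and 78716 in HSC1, 104259 and 175356 in HPC1, and 44604 and 207051 in the double-negative library. There, depth and Cd48 score cannot be told apart.

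The stem cell list was lower in Cd48-high cells in each library with a CD48+ gate: its median log2 ratio was -0.58 in the MPP2 library, -1.14 in HSC1 and -0.77 in HPC1, against -0.08 in the double-negative library. Members at least 2-fold lower numbered 7, 18 and 12 of 30 in the first 3 and 3 in the double-negative library, where 5.87%, 12%, 6.99% and 10.9% of the genes compared were. Mecom had 35.2 CPM in Cd48-high and 173 CPM in Cd48-low cells of HSC1 (log2 ratio -2.02), and 34.6 and 108 CPM in HPC1 (log2 ratio -1.40). In the double-negative library it had 151 and 149 CPM. Sult1a1 had log2 ratios of -3.35 in HSC1, -1.46 in HPC1 and 1.03 in the double-negative library. The CD48- gate of the HSC1 and HPC1 libraries was also CD201+, while that of the MPP2 library was CD201-. In HSC1 and HPC1 the CD48 and CD201 status of the gates cannot be told apart, and Procr (CD201) is itself on the list.

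The effector and adhesion list was not alike in the libraries. Its median log2 ratio was 1.09 in the MPP2 library and 0.96 in HSC1, with 9 and 8 of 17 members at least 2-fold higher. It was -0.22 in HPC1, with 1 higher and 4 lower, and 0.21 in the double-negative library, with 5 higher and none lower. Of all genes compared, 4.1%, 8.1%, 3.41% and 5.54% were at least 2-fold higher in the MPP2, HSC1, HPC1 and double-negative libraries. At least 2-fold lower were 6.99% in HPC1 and 10.9% in the double-negative library. Nkg7 was higher in Cd48-high cells of the MPP2, HSC1 and HPC1 libraries. It had 560 against 147 CPM in HSC1 and 545 against 232 CPM in HPC1, but 97.1 against 116 CPM in the double-negative library. Cd52 had 224 CPM in Cd48-high and 97.6 CPM in Cd48-low cells of HSC1, but 22.8 and 117 CPM in HPC1. Tespa1 was nearly absent from HPC1, at 0.491 and 1.81 CPM. Cdkn1a had 60.2 CPM in Cd48-high and 4.83 CPM in Cd48-low cells of HPC1, and 11.6 and 11.7 CPM in HSC1. The interferon list had medians of -0.24 in HSC1 and -0.51 in HPC1, and of -0.33 in the double-negative library.

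Overlaps of the genes past 2-fold were read against the share of all genes compared that passed in each library. Of the 342 genes higher in the MPP2 library, 36 (10.5%) were also at least 2-fold higher in HSC1, where 8.1% of all genes compared were, and 27 were at least 2-fold lower. In HPC1, 16 of the 342 (4.68%) were higher, against 3.41% of all genes, and 17 were lower. In the double-negative library 16 (4.68%) were higher, against 5.54% of all genes, and 37 were lower. As a share of the higher genes of each library, these overlaps were 6.11% in HSC1, 5.63% in HPC1 and 3.72% in the double-negative library. Of the 489 genes lower in the MPP2 library, 84 (17.2%) were also lower in HSC1, against 12% of all genes, and 19 were higher. In HPC1 56 (11.5%) were lower, against 6.99%, and 11 were higher, and in the double-negative library 61 (12.5%) were lower, against 10.9%, and 48 were higher. These were 9.63%, 9.62% and 7.22% of the lower genes of HSC1, HPC1 and the double-negative library. For the opposite directions, the shares of all genes compared in HSC1, HPC1 and the double-negative library were 12%, 6.99% and 10.9% lower. The shares higher were 8.1%, 3.41% and 5.54%. Of the opposite-direction numbers, only the 48 of 489 in the double-negative library lay above the share over all genes. The overlaps were not tested, and those of the higher genes lay near the share over all genes. The 12 named higher genes had a median log2 ratio of 0.30 in HSC1 and 0.32 in HPC1, with 9 of 12 above 0 in each, and of -0.58 in the double-negative library. The 12 named lower genes had medians of -0.45, -0.51 and -0.18, with 8 of 12 below 0 in each of the 3.

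**Figure D5:**
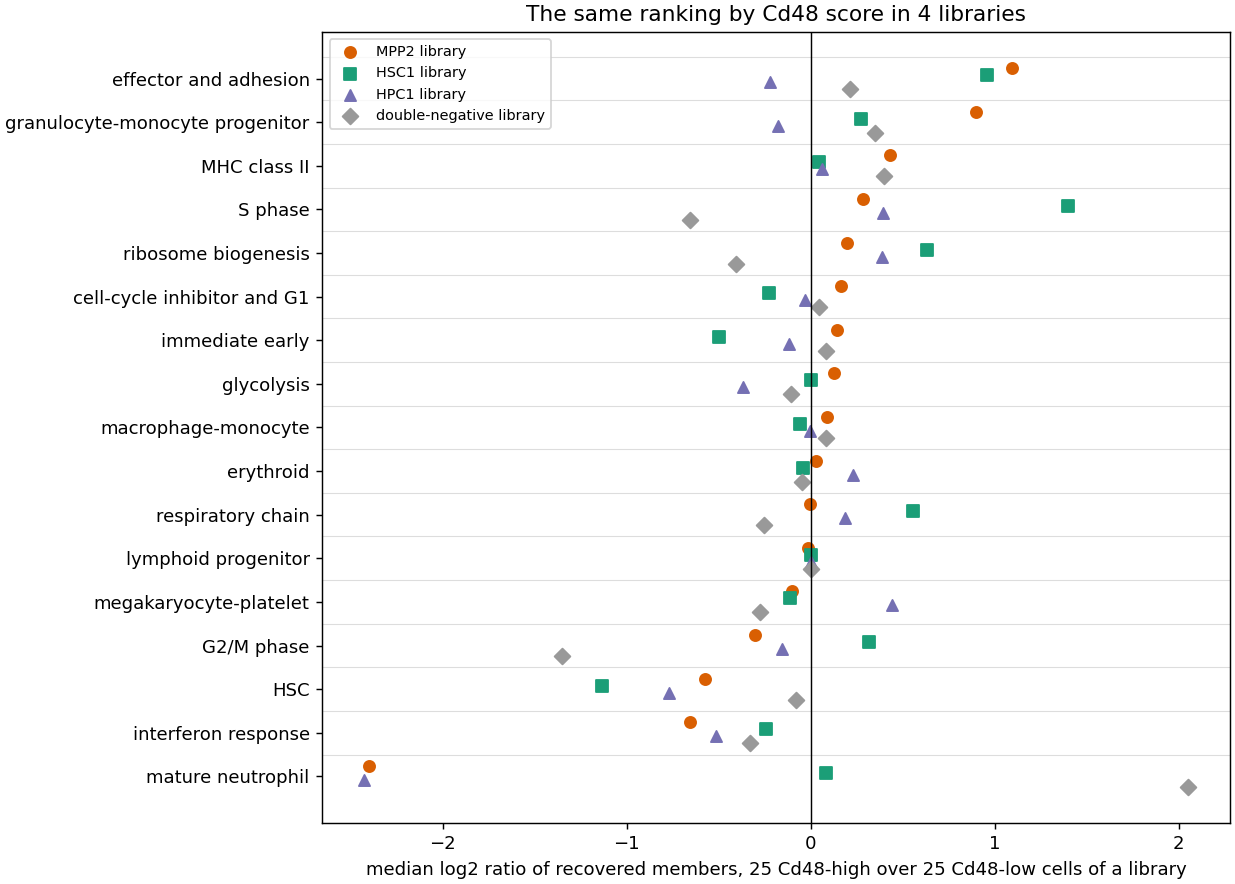
Median log2 ratio of the recovered members of each list with at least 10 of them, 25 Cd48-high over 25 Cd48-low cells, in the MPP2, HSC1, HPC1 and double-negative libraries. The stem cell list lies at -0.58, -1.14 and -0.77 in the libraries with a CD48+ gate and at -0.08 in the double-negative library. The CD48- gates of HSC1 and HPC1 were also CD201+, that of the MPP2 library CD201-. The effector and adhesion list is near 1 in the MPP2 and HSC1 libraries only, with -0.22 in HPC1 and 0.21 in the double-negative library.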

How the data were processed

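Single sorted cells were profiled by a modified Smart-seq2 protocol with enrichment of 3' ends and Illumina sequencing of polyA RNA, per the labels' protocols. The submitters' processing notes list TopHat, HTSeq and mm10; of versions, annotation, cell filters, doublet removal and molecular identifiers the sources used here say nothing. The deposited values are scores, capped at 10, and the 9901 of 13278 genes with no capped value have a mean of 0 and an SD of 1 across 497 cells, and per the file values cell covariates had been regressed out by the authors.

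Counts were solved back from these values. For a given gene, all cells holding none of it follow 1 linear function of 3 cell covariates plus a constant, so regression and scaling can be undone, with 10000 taken as the scale of a cell. Of 13278 genes, 11832 were recovered, and 100% of their 1991454 values up to 50 were whole within 0.01. A gene's scale was chosen to make its values whole, and a gene was kept only if nearly all were. That share is therefore in large part fixed by the selection and is no independent check. Recovered genes held 52.9 to 73.2% of a cell's total in the MPP2 library, where 338 capped values give lower bounds. The number of covariates and the tolerances were chosen by trying them on these files. The procedure was tested on simulated data. A first simulation, with the same spread for all genes, was less sparse than these data and no gene was recovered from it. The simulation was then changed to take each gene's spread from the recovered counts, and nearly all genes and the known changes came back. It draws on genes already recovered and scores them by the assumed model, so it tests the computation and not the model.

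Cells were neither clustered nor filtered, no doublets were called, and the files hold no barcodes. Ratios are of pooled CPM with 10 CPM added. The highest cell of a set, where left out, is the one with the most counts of the gene. For shares of cells given as thinned, every cell was first thinned to 10000 counts (Clopper-Pearson intervals). All other numbers of cells with a count were taken without thinning and are not matched for depth. Genes were named by rule: the 12 largest and 12 smallest ratios among recovered genes counted in at least 25% of the cells of either set, with the thinned share differing the same way and at least 2-fold without the highest cell of each set, without symbols of predicted genes, of mitochondrial genes or of ribosomal proteins. List members could be named too. The cells, lists and rule were chosen with earlier results of these data known. Python 3 with NumPy, SciPy, pandas and matplotlib was used.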

Additional observations from a re-analysis of the deposited data

Results flagged for a closer look

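Gene lists were compared between libraries under the same Cd48 ranking, and 3 pointed opposite ways, with the range of their middle members on opposite sides of 0. The differences were not tested. The megakaryocyte-platelet list had a median log2 ratio of 0.44 in the HPC1 library and -0.10 in the MPP2 library. The S phase list had -0.66 in the double-negative library and 0.28 in the MPP2 library. It had 1.40 in the HSC1 library and 0.39 in the HPC1 library. The mature neutrophil list had 2.05 in the double-negative library and -2.40 in the MPP2 library, where 1 cell sets it. In the HPC1 library it had -2.43, near the MPP2 value, and in the HSC1 library 0.08. Median counts per Cd48-high and Cd48-low cell were 44604 and 207051 in the double-negative library, and the part of depth was not tested.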

How the results depend on the processing

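Counts of genes were recomputed under 14 alternatives, and list medians and named genes under 13, since the filter on low values does not enter them. Of these, 2 (without the cell most often highest in each set, and the mean of per-cell log2 levels) were chosen after seeing the data. The stem cell list's median stayed between -0.93 and -0.31, the effector and adhesion list's between 0.30 and 1.73, and the interferon list's between -0.78 and -0.33. All 312 recomputed ratios of the 24 named genes kept their direction, which their choice in part fixes. Their size was less stable. Of the 24, 6 stayed past 2-fold with per-cell log2 levels, 14 with 50 CPM added, 19 with 40 cells a set and 21 with thinned cells. Genes higher and lower numbered 690 and 820 with 15 cells a set, 142 and 239 with 40, 827 and 1013 with 1 CPM added, 29 and 29 with 50 CPM added, and 129 and 34 with per-cell log2 levels. Lower genes numbered 313 without each gene's highest cells and 268 with thinned cells. The effector list was at 0.30 with 40 cells a set, and with 1 CPM added the stem cell list was at -0.93 and the granulocyte-monocyte list at 1.28. The granulocyte-monocyte list was at 0.052 without each gene's highest cells, 0.053 without the cells most often highest, 0.034 without cells rich in neutrophil, granule or haemoglobin genes, and -0.11 without the deepest 10% of cells. The mature neutrophil list was at 0.11 without highest cells, 0.70 with 15 cells a set, 0.16 without rich cells, 0.022 with per-cell log2 levels and -3.30 without the deepest cells. The G2/M list was at 0.29 with mean per-cell CPM, 0.17 with 40 cells a set, 0.14 with thinned cells and 0.44 with per-cell log2 levels. S phase was at 0.053 with 15 cells and 0.55 with per-cell log2 levels. The megakaryocyte list was at -0.28 with 15 cells, -0.29 thinned, 0.072 without the deepest cells, -0.0031 without rich cells and -0.0076 without the cells most often highest. Immediate early genes were at -0.19 with mean per-cell CPM, 0.47 with 15 cells and -0.18 thinned, and MHC class II genes at -0.46 thinned. Causes beyond the construction of each alternative were not tested. No paired analysis was possible because both sets come from 1 library. Median total counts of 151097 and 122832 per cell limit what can be said of genes near 10 CPM.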
